A study of Homo sapiens with 6 samples.

Results

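The insulin and insulin-like growth factor (IGF) axis was followed in HepG2 cells through 10 genes, chosen by name: the ligand IGF2, the receptors IGF1R, IGF2R and INSR, the receptor substrates IRS1 and IRS2, and the IGF-binding proteins IGFBP1, IGFBP2, IGFBP3 and IGFBP4. They were chosen with earlier results of these data known. Each matched 1 of the 57773 genes in the deposited table, and 10 of 10 had enough reads to be tested. Of these, 0 passed a false discovery rate (FDR) of 0.05 in edgeR's comparison of all TGFβ with all vehicle cultures, which 4.12% of all tested genes passed. With cultures of the same number compared to each other, IGFBP1 was 2.14-fold lower with TGFβ, and IGFBP4, IGF2 and IGF1R were 1.32-fold, 1.22-fold and 1.17-fold higher. Such paired calls were made for 3.75% of all tested genes downward and for 8.08% upward. As in any bulk sample, fewer cells expressing a gene and less RNA per cell cannot be told apart.

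IGF2 is a growth factor made abundantly by fetal liver and by many liver tumors. It acts through the tyrosine kinase receptors IGF1R and INSR, which phosphorylate the adaptors IRS1 and IRS2 and thereby engage phosphatidylinositol 3-kinase (PI3K), AKT and the RAS pathway, while IGF2R binds IGF2 at the cell surface and carries it to lysosomes. IGF-binding proteins hold IGFs in the extracellular fluid and limit their access to receptors, and in liver IGFBP1 is a classical target of insulin, which represses it through FOXO transcription factors.

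HepG2, a line established from a human hepatocellular carcinoma, was used at a passage number below 20, and the labels give a growth medium with serum, while the study's methods place the treatment in medium without it. RNA was sequenced from 3 cultures that received recombinant TGFB1 ligand (TGFβ) at 5 ng/mL and from 3 that received the respective vehicle, all for 3 h. The labels name no other drug, knockdown or allele in either group and do not describe the vehicle. The labels do not say whether the cultures were grown separately, while the study's methods call the sequenced samples biological replicates. P-values measure only the spread between these 6 cultures, which all derive from 1 line.

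Reads counted on genes ranged from 60815385 to 88415362 in vehicle cultures and from 73263662 to 100099136 in TGFβ cultures. The treatment was visible in known TGFβ targets: by edgeR's quasi-likelihood test PMEPA1 was 19.8-fold, SKIL 5.45-fold and SMAD7 3.30-fold higher, each at an FDR under 0.05. In all, 937 of 22747 tested genes passed that threshold, 3.11% higher and 1.01% lower. The summed level of 7 hepatocyte markers was 23580 to 27360 CPM (counts scaled to library size) in vehicle and 22520 to 27460 in TGFβ cultures. Most of it was ALB, at 13840 to 17230 CPM over the 6 libraries. Of the 7, edgeR called 0. With cultures of the same number compared, it called 2 lower, TTR (log2 -0.25, FDR = 0.0495) and FGB (log2 -0.22, FDR = 0.0331), against 3.75% of all tested genes. The 5 fibroblast markers summed to 13.6 to 14.9 CPM in vehicle and 23.3 to 34.6 in TGFβ cultures, almost all from PDGFRB and COL1A1, while COL3A1, DCN and LUM had at most 14 reads in any library. Of the leukocyte markers, PTPRC had 0 reads in 5 of 6 libraries, and LYZ made up nearly all of their sum (985 to 1457 CPM over the 6 libraries). Of 3 endothelial markers, 2 were found in the deposited table, CDH5 and VWF, and these summed to at most 0.272 CPM. What part these markers had in the results was not tested.

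Promoter sequences from RefSeq (GRCh38.p14) were at hand for 8 of the 10 genes, all but IGFBP1 and IGF2. The 250 bases before the start site are shown for 3 genes that differed in what they held among 4 searched motifs, with the matches in capitals. IGFBP4 held a TATA box, IGF2R held 3 copies of the E-box CACGTG, and IRS2 held a match to the FOXO or insulin response element.
IGFBP4, chr17:40443200-40443449, plus strand: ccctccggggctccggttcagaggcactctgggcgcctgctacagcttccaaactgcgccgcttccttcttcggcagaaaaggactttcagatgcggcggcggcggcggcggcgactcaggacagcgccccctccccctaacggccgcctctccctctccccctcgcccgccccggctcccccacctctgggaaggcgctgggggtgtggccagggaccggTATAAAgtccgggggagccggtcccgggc
IGF2R, chr6:159968832-159969081, plus strand: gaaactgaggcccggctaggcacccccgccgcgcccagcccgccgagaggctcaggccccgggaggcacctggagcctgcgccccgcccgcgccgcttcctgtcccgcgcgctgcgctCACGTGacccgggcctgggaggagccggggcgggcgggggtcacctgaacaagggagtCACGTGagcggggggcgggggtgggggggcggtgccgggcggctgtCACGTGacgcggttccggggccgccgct
IRS2, chr13:109786584-109786833, minus strand: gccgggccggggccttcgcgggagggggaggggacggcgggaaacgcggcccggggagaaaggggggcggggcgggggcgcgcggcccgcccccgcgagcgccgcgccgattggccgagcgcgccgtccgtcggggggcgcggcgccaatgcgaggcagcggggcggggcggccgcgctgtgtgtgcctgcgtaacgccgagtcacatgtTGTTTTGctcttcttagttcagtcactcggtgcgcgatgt
The TATA box of IGFBP4 began 29 bases before the start, the E-boxes of IGF2R 132, 74 and 28 bases before it, and the IRS2 match 40 bases before it.

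Both strands were searched, for the SMAD core (CAGAC or GTCTG), a FOXO or insulin response element (TGTTTTG or TGTTTAC, or the reverse complements CAAAACA or GTAAACA), the E-box and the TATA box (TATAAA or TTTATA). Among 35116 promoters of the same length, 38.0% held the SMAD core, 7.07% the FOXO or insulin element, 6.34% the E-box and 10.7% the TATA box. At least 3 E-boxes, as before IGF2R, were held by 28 promoters, or 0.0797%. The SMAD core was found before INSR, at 211 bases, and in the first and last of 3 listed IGFBP2 promoters. None of these letters was found before IGFBP3, IGF1R or IRS1. The printed promoters were rich in G and C, at 71.6% for IGFBP4, 79.2% for IGF2R and 76.4% for IRS2, against a median of 58.0% over all promoters. The motifs were chosen with the results known, and a match describes letters, not a bound site.

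To compare the genes with each other, the deposited RPKM was used, the read count scaled by the length in the table and by library size. Over the 6 cultures IGF2 had the highest level, at 295 ± 84.7 RPKM (SD, n = 6). IGFBP4 followed at 63.8 ± 14.4, IGFBP1 at 54.8 ± 27.1 and IGF2R at 40.2 ± 5.61. IGF2 lay above these in 6 of 6 cultures. IGFBP1 stood above IGFBP4 in the 3 vehicle cultures, below it in the 3 TGFβ cultures, and below IGF2R in TGFβ cultures 1 and 3. The place of IGFBP1 among these 3 thus differed between the groups, at 74.4 ± 20.5 RPKM in vehicle and 35.2 ± 16.2 in TGFβ cultures. Its SD over all 6 includes that difference. IGFBP4 was above IGF2R throughout. A step of 5.72-fold led down to the signaling receptors, with IGF1R at 7.03 ± 0.910, INSR at 5.06 ± 0.416 and IRS1, the adaptor, at 4.57 ± 0.713. INSR and IRS1 overlapped, and IGF1R exceeded INSR in 6 of 6 cultures. A further 10.9-fold below IRS1 stood IGFBP2 at 0.418 ± 0.122, followed by IGFBP3 at 0.0725 ± 0.0174 and IRS2 at 0.0169 ± 0.00497. The highest and the lowest of the 10 genes were thus 17490-fold apart in this table. IRS2 had at most 15 reads in any culture, and whether the counting kept reads from IRS2 or IGFBP2 was not tested, so their low places describe the deposited values. The length used for IGF2R in the table is shorter than the merged exons of the annotation given here. With merged exons its mean level was 17.7 RPKM, against 6.81 for IGF1R, and the order of the 10 means did not change. The 5.72-fold step, and IGFBP1 lying below IGF2R in TGFβ cultures 1 and 3, hold for the deposited lengths only.

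**Figure D1:**
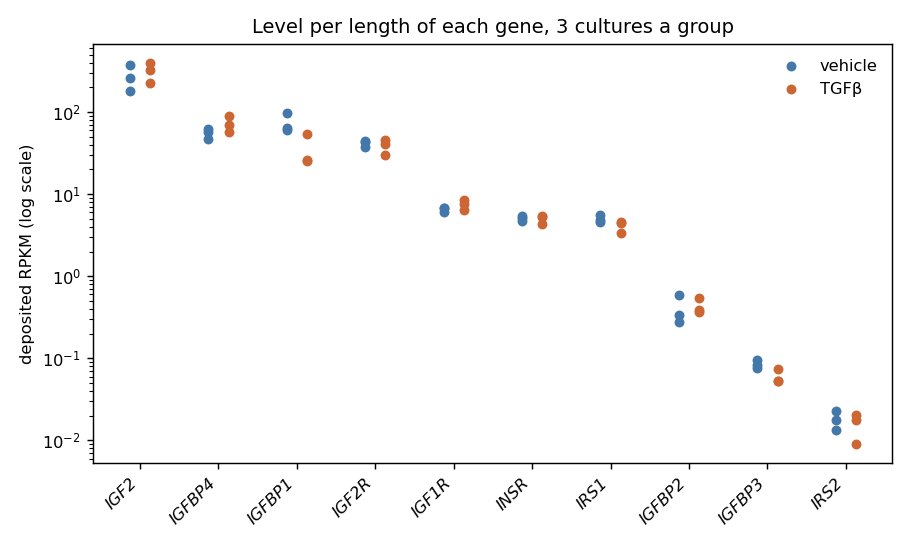
Deposited RPKM (y axis, log scale) of the 10 genes in the 3 vehicle (blue) and 3 TGFβ (orange) cultures, ordered by the mean over all 6. IGF2 stands highest and IRS2 lowest, and IGFBP1 overlaps both IGFBP4 and IGF2R.

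IGF2 (chr11:2150342-2170833 on hg19, minus strand) held nearly all reads of the ligand genes. IGF1 had 3 to 6 reads in any culture and INS had 0 in all 6. If the counting kept reads of INS, 0 allows up to 3 reads per library. INS lies largely within the readthrough gene INS-IGF2, and whether its reads were kept was not tested. Vehicle cultures 1, 2 and 3 had 2237, 1503 and 3188 CPM of IGF2, and TGFβ cultures 1, 2 and 3 had 2831, 1906 and 3572. In both groups culture 2 was the lowest and culture 3 the highest, each TGFβ culture lay above its partner, and the groups overlapped. Within vehicle alone the highest culture exceeded the lowest 2.12-fold, while within the 3 numbers TGFβ stood 1.27-fold, 1.27-fold and 1.12-fold above vehicle. Without the pairing, the log2 fold change was 0.26 ± 0.27 (SE) and the edgeR FDR = 0.789. With the replicate number as a block it was 0.28 ± 0.05, FDR = 0.00385. The call with the block held without any single number, at FDR from 0.00133 to 0.0438.

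The IGF2 locus carries overlapping genes to which the same reads may have been counted. INS-IGF2, the readthrough of the insulin and IGF2 genes, had 339, 214 and 444 CPM in vehicle and 436, 292 and 505 in TGFβ cultures, the same order of cultures as IGF2. Its log2 fold change was 0.31 (edgeR FDR = 0.722, and FDR = 0.00232 with the block). AC132217.4, which also lies there, had a log2 fold change of 0.37 (FDR = 0.605, and 0.00892 with the block). With the reads of INS-IGF2 added to those of IGF2, the log2 fold change with the block was 0.29, FDR = 0.00352. The antisense gene IGF2-AS had 20 to 66 reads and the intronic miRNA gene MIR483 had 1 to 7. These genes are not independent evidence, since it is not known here how reads on overlapping genes were assigned.

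**Figure D2:**
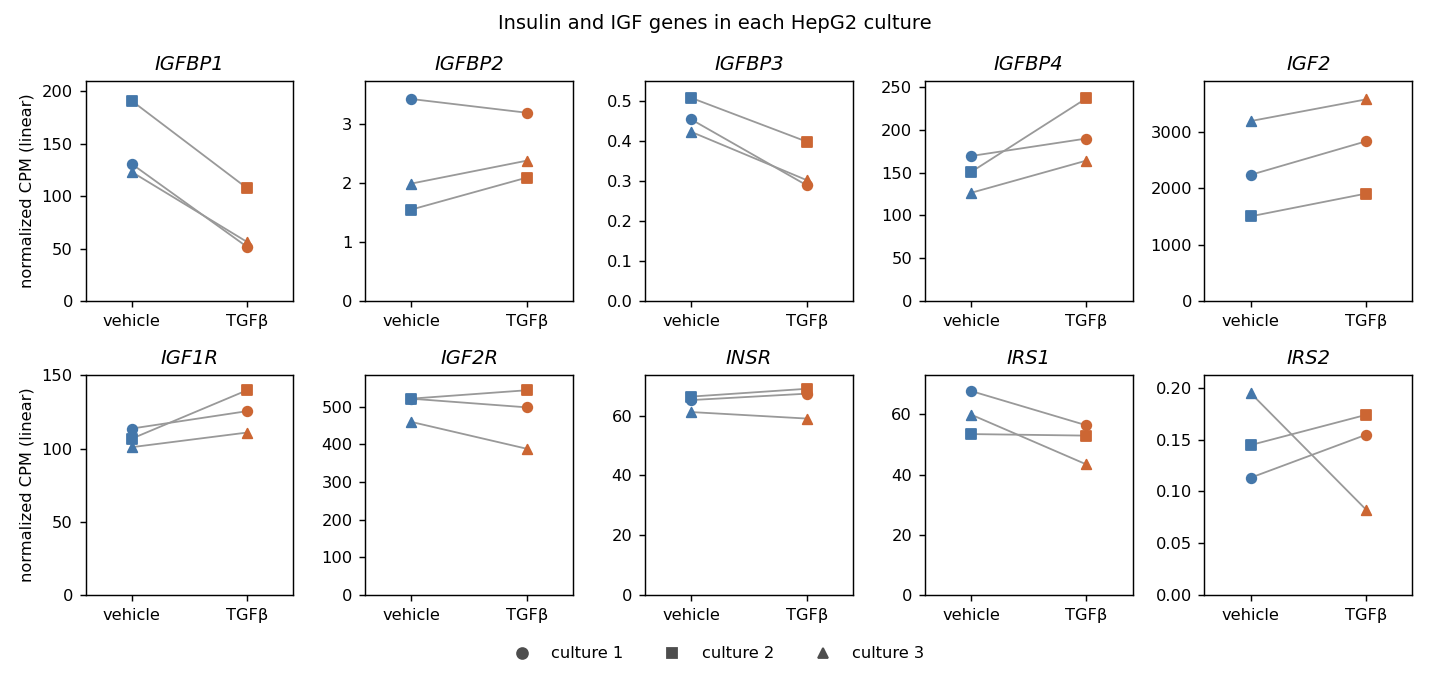
Normalized CPM (y axis, linear from 0, each gene on its own scale) of the 10 genes in each vehicle (blue) and TGFβ (orange) culture, with lines joining cultures of the same number. The 3 lines of IGFBP1 and IGFBP3 run down and those of IGFBP4, IGF2 and IGF1R run up, while INSR is nearly flat.

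Among the receptors, IGF1R (chr15:99192200-99507759, plus strand), which transmits IGF1 and IGF2 signals, had 114, 107 and 101 CPM in vehicle cultures 1, 2 and 3 and 126, 140 and 111 with TGFβ. Every TGFβ culture was above its partner, and TGFβ culture 3 lay below vehicle culture 1, so the groups overlapped. The log2 fold change was 0.23 ± 0.09 (SE), with a 95% interval of 0.02 to 0.44 and FDR = 0.308 by edgeR. With the block it was 0.22 ± 0.06, FDR = 0.0309. That call rested on culture 2: without number 2 the value was 0.15, FDR = 0.308.

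INSR (chr19:7112266-7294045, minus strand), the insulin receptor, had 65.2, 66.4 and 61.2 CPM in vehicle and 67.3, 69.0 and 59.0 in TGFβ cultures. These lay in a narrow band in which culture 3 was the lowest of each group. The fold change was 1.01, with a 95% interval of 0.894 to 1.15 (edgeR FDR = 0.955) and of 0.935 to 1.10 with the block. IGF2R (chr6:160390131-160534539, plus strand), the clearance receptor, had 521, 522 and 460 CPM in vehicle and 498, 544 and 388 in TGFβ cultures, overlapping again, with culture 3 lowest in both groups. Its fold change was 0.952 (95% interval 0.792 to 1.14, FDR = 0.879, and 0.455 with the block). Within IGF2R lie RP11-288H12.3 and RP11-288H12.4, with 185 to 544 reads a culture, and the antisense AIRN with 0 to 4. The ratio of IGF1R to INSR in RPKM was 1.35, 1.24 and 1.28 in vehicle and 1.44, 1.57 and 1.45 with TGFβ. The groups of this ratio did not overlap, and an exact two-sided permutation test gave P = 0.1, the smallest that 3 against 3 cultures can give. The ratio of IGF2 to IGF2R was 6.12, 4.11 and 9.90 in vehicle cultures 1, 2 and 3 and 8.10, 5.00 and 13.1 with TGFβ. It was higher with TGFβ at each of the 3 numbers, while the groups overlapped (exact permutation P = 0.6 without the pairing).

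IRS1 (chr2:227596033-227664475, minus strand), the first adaptor of both signaling receptors, had 67.7, 53.4 and 59.9 CPM in vehicle and 56.3, 52.9 and 43.4 in TGFβ cultures. Each TGFβ culture was below its partner, by as little as 0.990-fold at number 2 and as much as 0.724-fold at number 3, and the groups overlapped. The log2 fold change was -0.25 ± 0.12 (SE; 95% interval -0.51 to 0.01), with FDR = 0.403 by edgeR and 0.0758 with the block. Without number 2 the block gave -0.35, FDR = 0.00796, but without number 1 or 3 it gave -0.245 and -0.142, FDR = 0.231 and 0.274. IRS2 (chr13:110406184-110438915, minus strand), the second adaptor and in liver a FOXO target, had 10, 12 and 12 reads in vehicle and 15, 14 and 6 in TGFβ cultures. TGFβ was above vehicle at numbers 1 and 2 and below it at number 3. With so few reads the 95% interval of the fold change ran from 0.495 to 1.77 (FDR = 0.957), so a difference within it was not detectable at these counts.

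IGFBP1 (chr7:45927956-45933267, plus strand), the insulin-repressed binding protein of liver, had the largest fitted difference among the 10 genes. Vehicle cultures 1, 2 and 3 had 131, 191 and 123 CPM, and TGFβ cultures had 51.6, 107 and 56.3. Culture 2 was the highest in both groups, and the groups did not overlap, since the lowest vehicle culture stood above the highest TGFβ culture. Reads were many, from 4106 to 15799 a culture. The fold change was 2.06-fold lower, a log2 value of -1.05 ± 0.27 (SE; 95% interval -1.64 to -0.45), with edgeR FDR = 0.0628. With the block the value was -1.10 ± 0.09, FDR = 0.000172, and TGFβ cultures held 0.395, 0.563 and 0.458 of the level of their partners. Without the block, leaving out TGFβ culture 2 gave -1.47, FDR = 0.0101, and leaving out any other culture left it above 0.05. DESeq2 gave FDR = 0.132. In edgeR without the block, leaving out the filter on low counts gave -1.07, FDR = 0.5135. Keeping genes with 10 counts or more in every library gave -1.05, FDR = 0.107.

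IGFBP3 (chr7:45951949-45961473, minus strand), the main IGF carrier of plasma, lies 18.7 kb from IGFBP1. It had 40, 42 and 26 reads in vehicle and 28, 32 and 22 in TGFβ cultures, or 0.453, 0.507 and 0.422 against 0.289, 0.398 and 0.302 CPM. In CPM the groups did not overlap, and each TGFβ culture was below its partner. The log2 fold change was -0.49 ± 0.26 (SE; 95% interval -1.08 to 0.10), with FDR = 0.501 by edgeR and 0.302 with the block. IGFBP1 and IGFBP3 were the 2 of 10 genes with no overlap between groups, a property shared by 18.6% of all tested genes.

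IGFBP4 (chr17:38599702-38613983, plus strand), which inhibits IGF action and is cleaved by the protease PAPPA, had 169, 151 and 126 CPM in vehicle and 190, 237 and 164 in TGFβ cultures. Each TGFβ culture exceeded its partner, most at number 2, and TGFβ culture 3 lay below vehicle culture 1. The log2 fold change was 0.40 ± 0.14 (SE; 95% interval 0.09 to 0.72), with FDR = 0.200 by edgeR, 0.0933 by DESeq2 and 0.0194 with the block. Without number 1, 2 or 3 the block gave 0.51, 0.28 and 0.41, each with FDR under 0.05. IGFBP2 (chr2:217497551-217529159, plus strand), another carrier, had 303, 129 and 123 reads in vehicle and 310, 169 and 174 with TGFβ, or 3.43, 1.56 and 2.00 against 3.20, 2.10 and 2.39 CPM. Culture 1 was the highest in both groups, and TGFβ was below vehicle at number 1 and above it at numbers 2 and 3. Its fold change was 1.10 (95% interval 0.702 to 1.72, FDR = 0.906, and 0.550 with the block).

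The make-up of the binding protein transcripts was compared through IGFBP1 and IGFBP4, the 2 with the most RNA. Per length, IGFBP1 exceeded IGFBP4 in 3 of 3 vehicle cultures, with ratios of 1.03, 1.69 and 1.30, and was below it in 3 of 3 TGFβ cultures, with 0.364, 0.607 and 0.460. The ratio was 2.82-fold lower with TGFβ (exact two-sided permutation P = 0.1, the smallest possible). IGFBP1 made up 50.5% to 62.7% of the RPKM of the 4 binding proteins in vehicle and 26.5% to 37.7% with TGFβ, and IGFBP4 37.03% to 48.9% and 62.0% to 72.9%. IGFBP2 and IGFBP3 together were the small rest. The sum of the 4 was 128, 156 and 108 RPKM in vehicle and 95.6, 143 and 84.3 in TGFβ cultures, lower with TGFβ at each number but overlapping between groups.

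**Figure D3:**
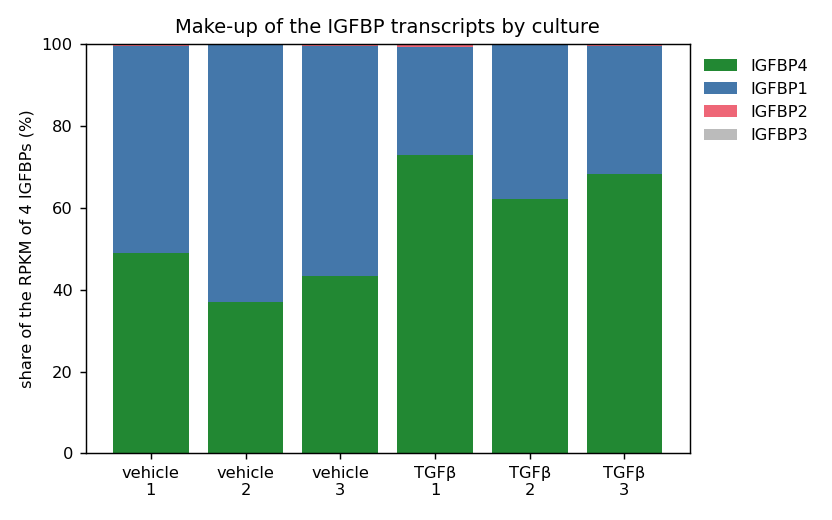
Share of each gene in the summed RPKM of IGFBP1 to IGFBP4 (y axis, %) in each culture. IGFBP4 (green) is 37.03% to 48.9% in the 3 vehicle bars and 62.0% to 72.9% in the 3 TGFβ bars, with IGFBP1 (blue) as nearly all of the remainder.

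Counted together, 0 of the 10 genes passed the edgeR FDR threshold, against 4.12% of all tested genes, and 3 (IGFBP1, IGFBP4 and IGF1R) had an unadjusted P under 0.05, against 13.7%. DESeq2 called 0 of the 9 to which it gave an FDR, against 6.65% of the genes it tested. With the block 3 were called higher (IGFBP4, IGF2 and IGF1R) and 1 lower (IGFBP1), against 8.08% and 3.75% of all tested genes. Their median log2 fold change was -0.03, and that of all tested genes -0.005. With all 6 cultures in the fit, the 4 calls thus rest on the pairing of cultures by number.

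**Figure D4:**
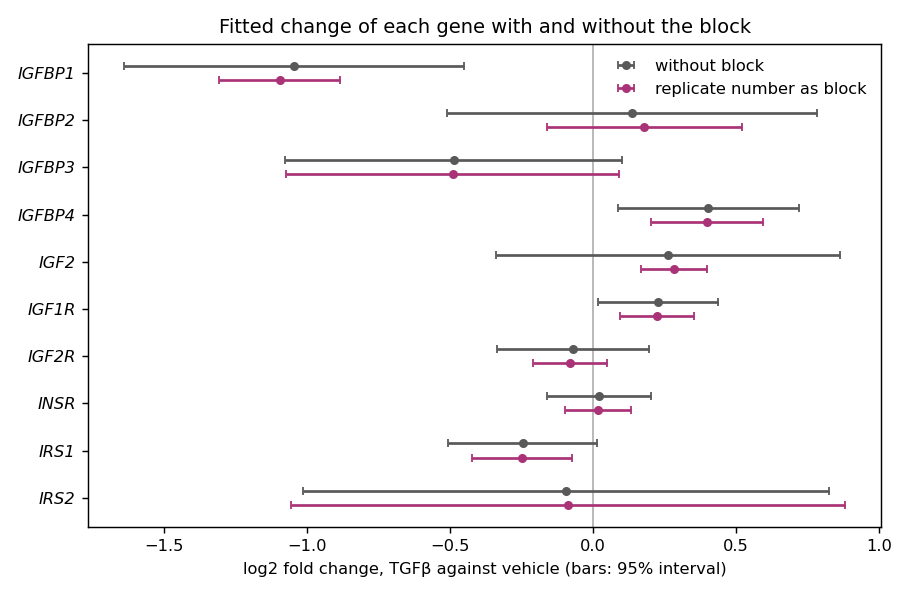
Log2 fold change of TGFβ against vehicle (x axis) with its 95% interval for each gene, from edgeR without a block (grey) and with the replicate number as a block (purple). The intervals of IGF2 and IGFBP1 shrink most with the block, and IRS2 and IGFBP3 stay wide, with 6 to 42 reads a culture.

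Beyond these 10 genes, 86 others of the axis were listed by role, of which 74 were tested. By edgeR 5 rose (6.76%, against 3.11% of all tested genes) and 6 fell (8.11%, against 1.01%) at an FDR under 0.05. With the block 15 were higher and 11 lower, where 8.08% and 3.75% of all tested genes were. Their median log2 fold change was 0.05. The lists were drawn up with earlier results of these data known, so shares above those of all tested genes are no independent evidence. Of 15 other ligands, receptors and binding proteins 9 were tested, and of 8 IGFBP proteases and inhibitors 4, and 0 of these 13 were called by edgeR (2 had an unadjusted P under 0.05, and DESeq2 called the same number). With the block 2 of the first list were higher, INS-IGF2 and IGFALS, and 1 of the second was lower, STC2. Their log2 fold changes ranged from -0.47 to 0.84.

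Of the signal transduction genes 47 of 47 were tested, with 5 higher (10.6%, against 3.11% of all tested genes) and 1 lower (2.13%, against 1.01%). With the block 10 of the 47 were higher and 4 lower, where 8.08% and 3.75% of all tested genes were. GRB10, an adaptor that binds the insulin and IGF1 receptors and dampens their signal, had 27.6, 28.4 and 26.8 CPM in vehicle and 51.5, 72.3 and 59.5 with TGFβ. The groups were far apart, with a log2 fold change of 1.15 ± 0.12 (SE, edgeR FDR = 0.00051), a 2.21-fold rise. SOCS3, a cytokine-induced inhibitor that also binds IRS proteins, had 0.170, 0.217 and 0.309 CPM in vehicle and 0.857, 1.02 and 1.15 with TGFβ, a 4.41-fold rise from a low level (FDR = 0.00241). DDIT4, an inhibitor of mTORC1 downstream of AKT, had 81.7, 55.2 and 101 CPM in vehicle and 163, 155 and 233 with TGFβ, a 2.32-fold rise (FDR = 0.0106). GRB10, SOCS3 and DDIT4 are thus 3 described inhibitors among the 5 that rose. DDIT4 lost its call without TGFβ culture 1 or 2 (FDR = 0.0723 and 0.0602) and without the filter on low counts (FDR = 0.278).

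The other two that rose link receptors to RAS and PI3K. SOS2, a RAS exchange factor, had 25.2, 30.6 and 28.5 CPM in vehicle and 42.2, 43.0 and 39.2 with TGFβ, 1.48-fold higher (edgeR FDR = 0.0065). GAB1, a docking protein, had 29.5, 24.1 and 26.3 against 40.4, 36.0 and 34.2, 1.39-fold higher (FDR = 0.027). The call of GAB1 was lost without vehicle culture 2 or 3 or TGFβ culture 1 or 2, at FDR from 0.0781 to 0.123. PIK3R1, the p85α regulatory subunit of PI3K, fell. It had 33.7, 37.6 and 46.5 CPM in vehicle and 25.2, 24.2 and 25.8 with TGFβ, 1.57-fold lower (FDR = 0.0105). GRB10, SOCS3, SOS2 and PIK3R1 kept their calls when any single culture was left out.

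The genes of liver that respond to insulin or FOXO, the regulatory class of IGFBP1, were lower where edgeR called them. Of 16 listed genes 14 were tested. Of these, 0 were called higher and 5 lower (35.7%, against 1.01% of all tested genes), and the median log2 fold change was -0.34. As the list was drawn up with earlier results known, its share is no independent evidence. PCK1, the rate-limiting enzyme of gluconeogenesis, had 1.07, 1.09 and 1.75 CPM in vehicle and 0.103, 0.311 and 0.151 with TGFβ, 6.90-fold lower (edgeR FDR = 0.0033). KLF15, a transcription factor of the fasting response, had 7.05, 7.36 and 7.15 against 2.88, 2.71 and 2.48 CPM, 2.67-fold lower (FDR = 0.000305). BCL6, a transcriptional repressor, had 31.4, 25.0 and 24.3 against 15.6, 13.3 and 12.5, 1.95-fold lower (FDR = 0.00206). In all of these genes the groups lay well apart, and the calls held without any single culture.

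PPARGC1A, a coactivator of gluconeogenic genes, had 21.1, 25.3 and 21.0 CPM in vehicle and 14.03, 13.81 and 12.3 with TGFβ, 1.68-fold lower (edgeR FDR = 0.00331). G6PC, the final enzyme of glucose release, had 1.65, 1.46 and 1.43 against 0.888, 0.659 and 0.864, 1.88-fold lower (FDR = 0.0366), and lost its call in 5 of the 6 fits that left out 1 culture, at FDR from 0.0621 to 0.154. PCK1 and G6PC were at low levels throughout. With the block 3 of the 14 tested genes of this list were called higher and 6 lower, against 8.08% and 3.75% of all tested genes. The downward direction thus did not hold for all members of the list.

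**Figure D5:**
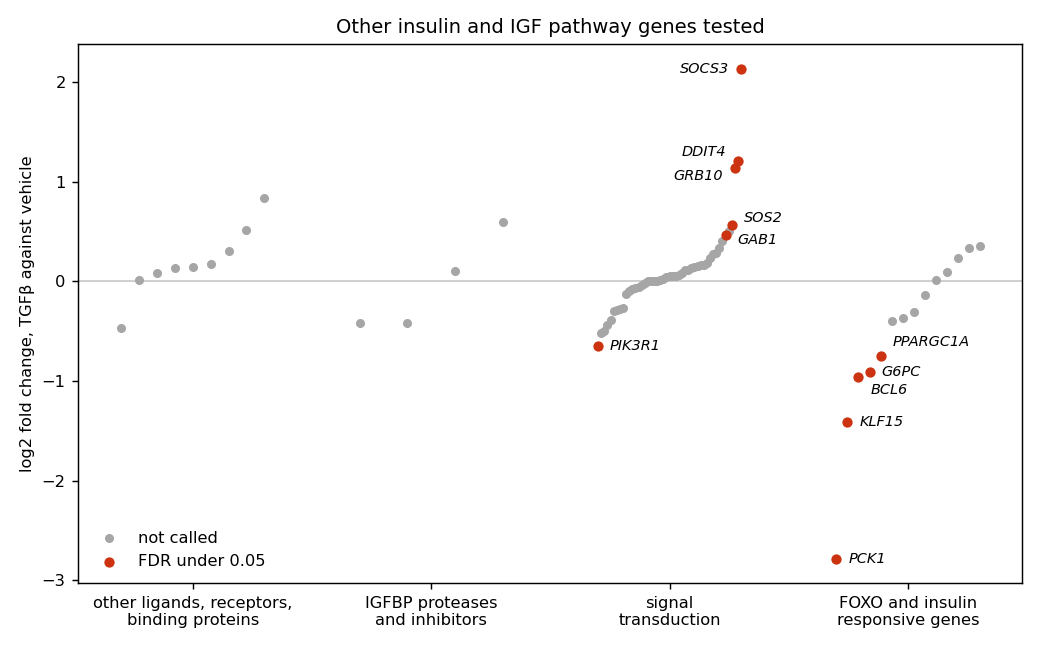
Log2 fold change of TGFβ against vehicle (y axis) of the 74 other tested genes, in 4 groups by role and sorted within each, with the 11 that passed an edgeR FDR of 0.05 in red and named. Calls lie in signal transduction, where 5 of 6 are higher, and among the FOXO and insulin responsive genes, where 5 of 5 are lower.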

How the data were processed

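Counts and RPKM of HepG2 RNA-seq libraries (TruSeq v2, paired reads of 51 bases; 3 vehicle and 3 TGFβ cultures) were used. The authors deposited 1 raw count per gene and culture, without normalization, and beside it the RPKM, per kilobase of a length column in the same table. The submitters' processing notes name bcl2fastq, TopHat2 2.0.6, HTSeq and hg19. How strand and overlapping genes were treated in counting, and which annotation release was used, is not given in the sources used here. Gene positions are those of the table (hg19), with strands from a GENCODE annotation on GRCh37.

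Counts were normalized by TMM, filtered by filterByExpr (22747 genes kept) and tested with edgeR 4.0.16 (R 4.3.3), by the robust quasi-likelihood test with no block, with P adjusted over all tested genes by Benjamini and Hochberg. CPM values are TMM normalized. FDR denotes the adjusted P, SE is that implied by the test, and intervals are 95%. The alternatives were DESeq2 1.42.0, scaling by its size factors or by total count, leaving out the filter or keeping genes with 10 counts or more in every library, each culture left out, and the replicate number as a block. Levels between genes were compared by the deposited RPKM only, and ratios by exact permutation tests. Only the edgeR fit without the block was run on simulated data, with counts drawn without any pairing of cultures. The block, DESeq2 and the permutation tests were not tested in this way.

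Replicate numbers were taken to pair the cultures: deviations from the group means, across genes, correlated at 0.366, 0.227 and 0.316 for cultures 1, 2 and 3, and at 0.0101 or less for cultures of different numbers. Deviations cancel within each group, so positive values for equal numbers force lower ones between different numbers, which are no separate evidence. The pairing comes from this check and not from a label, and the block was fitted to the same counts. Whether a shared culture or a shared lane gave the correlation was not tested. Per the labels, numbers 1 and 2 shared a sequencing lane with their partner and number 3 did not, so for it lane and treatment cannot be told apart. Replicates differed by far more than sampling noise (chi-square per gene 21.4 to 46.3), and each counted as 1 sample.

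Named were the 10 genes, the other listed genes at an FDR under 0.05, genes overlapping one of the 10, and PMEPA1, SKIL and SMAD7. The 10 genes, the lists and the motifs were chosen with earlier results of these data known. Other genes named (IGF1, INS, the cell type markers and those of the closing section) were chosen after their values were seen. No per-sample column of the table was left unused.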

Additional observations from a re-analysis of the deposited data

How the results depend on the processing

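The replicate block, which moved counts most, gave 4 calls among the 10 genes (0 without it), 26 among the 74 other pathway genes (11) and 2690 among all tested genes (937). In fits added after the data were seen, the block without number 1, 2 or 3 called 4, 4 and 4 of the 10 genes, 27, 17 and 25 of the others, and 2390, 1480 and 3063 of all. The 4 genes were not always the same: without number 2, IRS1 (FDR = 0.00796) took the place of IGF1R (FDR = 0.308). Leaving out 1 culture without the block gave 0 to 1 call among the 10 genes and 485 to 998 among all genes. The lowest of these, 485, came without vehicle culture 3, with 518 without vehicle culture 2 and 561 without TGFβ culture 2. The following genes without a call turned their sign. IGFBP2 ranged from -0.10 to 0.53 (log2) and IGF2R from -0.19 to 0.05 with 1 culture left out. INSR ranged from -0.035 to 0.077 in the same fits, and was -0.023 with total-count scaling, -0.004 without the filter and -0.005 with the block without number 1. IRS2 ranged from -0.30 to 0.14, and was 0.35 with the block without number 3. The cause was not tested. Over all fits of single genes, 273 kept their direction and side of the threshold, 18 gained a call, 13 lost one and 12 turned their sign. The few reads of IRS2 and IGFBP3, 6 to 42 a culture, limit the precision of their values.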

Other observations

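Some genes of the axis outside the 11 calls, picked here after their values were seen, had no call in edgeR's fit without the block and a call with it. IGFALS, which encodes the acid-labile subunit of the circulating IGF complex, had 4.24, 2.28 and 3.04 CPM in vehicle and 7.18, 4.52 and 5.41 with TGFβ (log2 0.84, edgeR FDR = 0.107, DESeq2 FDR = 0.00788, and FDR = 0.000543 with the block). STC2, a secreted inhibitor of the IGFBP4 protease PAPPA, had 127, 132 and 149 against 84.0, 109 and 114 CPM, with no overlap (log2 -0.41, edgeR FDR = 0.0964, DESeq2 FDR = 0.0306, and 0.000759 with the block). FOXO1, a transcription factor that insulin inactivates, had 25.7, 31.9 and 26.2 against 36.1, 42.5 and 32.5 CPM, also with no overlap (log2 0.41, edgeR FDR = 0.108, DESeq2 FDR = 0.0358, and 0.000809 with the block). AKT1, the kinase below PI3K, had 166, 148 and 136 against 187, 182 and 164 CPM, and the groups overlapped (log2 0.24, edgeR FDR = 0.243, DESeq2 FDR = 0.241, and 0.00754 with the block).

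PDK4, a further FOXO responsive gene, was too low to be tested, with 8, 7 and 2 reads in vehicle and 0 in each TGFβ culture.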
